A study of Mus musculus with 24 samples.

Results

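The genes described here encode the partners of the HSP70 chaperones and the chaperone systems that work beside them in mouse brain. They are J-domain proteins, HSP90 and its co-chaperones, BAG domain proteins, the mitochondrial and cytosolic chaperonins, small heat shock proteins and the heat shock factors. The 44 genes were chosen by these roles, with earlier results of these data known. A probe set counted for a gene only where its annotation carried that symbol alone. Of the 44, 41 had such a probe set and 3 did not. Hsp90ab1, Hsf1 and Ptges3 are the 3 genes without such a probe set and were not analysed here. The 41 genes had 100 probe sets, of which 91 passed the filter on dim signals, out of 27022 tested in the series. The brightest probe set of each of the 41 genes passed, out of 12929 genes with a tested brightest probe set.

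RNA of the whole brain was measured on 24 Affymetrix arrays in 4 groups of 6, all at 4 months. The groups were aSYN/Hsp70, with both alterations together, aSYN alone, Hsp70 alone, and wildtype (wt). The name aSYN was taken to stand for alpha-synuclein, though no label says so, and no promoter, strain, sex or source species is given for either alteration. Whether the 6 samples of a group were separate animals is not stated either. The p-values therefore reflect only how much these samples varied, which may be in part technical.

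HSP70 proteins bind and release unfolded proteins in a cycle driven by ATP. J-domain proteins bring clients and speed ATP hydrolysis, nucleotide exchange factors such as BAG domain proteins release the client, and STIP1 hands clients on to HSP90. Small heat shock proteins hold unfolded proteins without ATP, and chaperonins enclose them in a chamber. In stressed cells heat shock factor 1 binds inverted repeats of GAA in the promoters of many of these genes. In brain this network is studied for its action on aggregating proteins such as alpha-synuclein.

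Promoter windows, from 250 bases before to 50 bases after each annotated start site, were taken from RefSeq on GRCm38.p6 for 37 of the 44 genes. Hsp90aa1, Hsp90ab1, Cct4, Bag4, St13, Cryab and Hsf1 had no window in the table. The windows were searched for GAANNTTC and TTCNNGAA, the head-to-head and tail-to-tail pairs of the GAA repeat. Each is its own reverse complement, so a match lies on both strands, and matches of the 2 motifs may overlap. At least 1 match was found in 16 of the 37 genes (43.2%), against 17.0% of the 27025 genes with a window. Counted by window, 17 of 51 windows of these genes had a match (33.3%), against 15.1% of 32851 windows. For 2 or more matches the shares were 13.7% of these windows and 1.96% of all windows. The windows of Hspe1 (1) and Hspd1 (2) overlap, so the same DNA counts more than once in these shares. Chordc1, a co-chaperone of HSP90, had 5 matches, all after its start site. A match is a description of the letters and does not show that a factor binds there.
Of the stretches before a start site shown next, the first is the DNA between the divergent start sites of Hspe1 and Hspd1, because the levels of these neighbours moved together across arrays (given further on). It holds 3 overlapping matches that begin 89, 84 and 79 bases before the Hspe1 start. Hspb1 is shown as a small heat shock gene with 2 matches, which begin 117 and 97 bases before its start. Bag1, the gene with the smallest p-value among those described here, is shown as a stretch with 0 matches. They lie at chr1:55087933-55088147 on the plus strand, chr5:135887669-135887918 on the plus strand and chr4:40948295-40948544 on the minus strand. Each is written 5′ to 3′ along the named gene, Hspe1 for the first, with matches in capitals.
Hspe1/Hspd1: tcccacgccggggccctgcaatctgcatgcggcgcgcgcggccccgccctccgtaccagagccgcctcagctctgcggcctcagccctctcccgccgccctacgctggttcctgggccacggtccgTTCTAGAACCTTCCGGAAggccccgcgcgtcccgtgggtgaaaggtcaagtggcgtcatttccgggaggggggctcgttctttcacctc
Hspb1: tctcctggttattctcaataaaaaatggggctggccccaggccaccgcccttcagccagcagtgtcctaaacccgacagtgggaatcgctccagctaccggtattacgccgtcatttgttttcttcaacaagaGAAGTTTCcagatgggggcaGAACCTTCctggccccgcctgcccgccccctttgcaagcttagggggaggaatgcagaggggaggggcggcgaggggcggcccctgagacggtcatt
Bag1: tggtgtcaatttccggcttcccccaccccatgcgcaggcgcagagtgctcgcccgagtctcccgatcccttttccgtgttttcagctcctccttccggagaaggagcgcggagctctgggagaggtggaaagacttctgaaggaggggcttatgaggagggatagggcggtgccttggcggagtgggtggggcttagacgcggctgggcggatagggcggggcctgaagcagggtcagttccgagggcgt

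The deposited intensities had been scaled per array, and array medians ran from 458 to 893. After log2 transformation and quantile normalisation, 4 of the 24 arrays had a limma array weight under 0.5. In the aSYN/Hsp70 group these were replicate 4 (weight 0.124) and replicate 3 (0.394). In the Hsp70 group they were replicate 3 (0.251) and replicate 6 (0.332). Of the neuronal markers that define the tissue, 10 of 10 passed the filter on dim signals, and so did 4 of 6 pituitary genes. The mean 3′ minus 5′ log2 signal of the control probe sets, a sign of RNA quality, was 0.85 ± 0.09 in aSYN/Hsp70, 0.97 ± 0.08 in aSYN, 0.92 ± 0.18 in Hsp70 and 0.85 ± 0.13 in wt (SD, n = 6 each). The part of any of these in the results was not tested beyond the values given without those arrays. A score of Y-linked minus Xist log2 signal, which follows the sex of the animal, was 1.58 or higher on 4 of 6 aSYN/Hsp70, 2 of 6 aSYN, 3 of 6 Hsp70 and 2 of 6 wt arrays, and -3.79 or lower on the others. With this score as a covariate 0 of the chaperone probe sets were called in any comparison. The 4 probe sets of the mouse Hsp70 genes Hspa1a and Hspa1b had averaged Hsp70 differences of -0.28 to 0.39 (lowest limma adjusted p = 0.468), and since the labels do not name the gene added, they do not check the Hsp70 label.

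Across the 7 comparisons, 0 of the 91 probe sets passed limma's test at an adjusted p of 0.05. The background shares called over all 27022 probe sets were small as well. They were 0.718% for aSYN/Hsp70 versus aSYN, 0.0037% for aSYN versus wt, and 0% for aSYN/Hsp70 versus wt, for aSYN/Hsp70 versus Hsp70, for Hsp70 versus wt, for the averaged Hsp70 difference and for the interaction. The 0.718% stands for 194 probe sets, a number that single arrays moved widely, to 49 without aSYN replicate 2 or replicate 3 and to 814 without aSYN/Hsp70 replicate 6. The averaged Hsp70 difference is the mean of aSYN/Hsp70 minus aSYN and Hsp70 minus wt, and the interaction is the first of these minus the second. Levels and differences are on the log2 scale, where a difference of 1 is a 2-fold change, and limma's p-values were adjusted by Benjamini and Hochberg's method across every probe set tested. Several comparisons share the same arrays, so their values for a gene are not independent of each other.

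At an unadjusted p under 0.05 the counts among the chaperone probe sets lay near or below the background in most comparisons. In aSYN/Hsp70 versus aSYN the count was 16 of 91 (17.6%), against 19.6% of all probe sets. In the averaged Hsp70 difference it was also 16 of 91 (17.6%), against 17.7%. The aSYN/Hsp70 versus wt comparison gave 17 of 91 (18.7%), against 14.5%, with 8 higher in aSYN/Hsp70 (6.08% of all probe sets) and 9 lower (8.44%). For aSYN/Hsp70 versus Hsp70 it was 3 of 91, against 9.62% of all probe sets, and for the interaction 4 of 91, against 8.13%. In Hsp70 versus wt it was 4 of 91, against 4.83%, and in aSYN versus wt 2 of 91, against 5.17%.

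Counted by whether the 6 values of a group lay clear of the 6 of the other, 5 of 91 probe sets separated aSYN/Hsp70 from wt, against 0.888% of all probe sets. They were the brightest set of Trap1 and dimmer sets of Dnaja3, Cct3 and Cct4, the last with 2 sets. The Cct3 and Cct4 sets carry a suffix by which the array's maker marks probes that may match more than a single transcript. In aSYN/Hsp70 versus aSYN it was 1 of 91, the Bag1 set, against 2.05%. In the other pairs of groups it was 0 of 91, against 0.311% for aSYN/Hsp70 versus Hsp70, 1.17% for aSYN versus wt and 0.27% for Hsp70 versus wt.

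**Figure D1:**
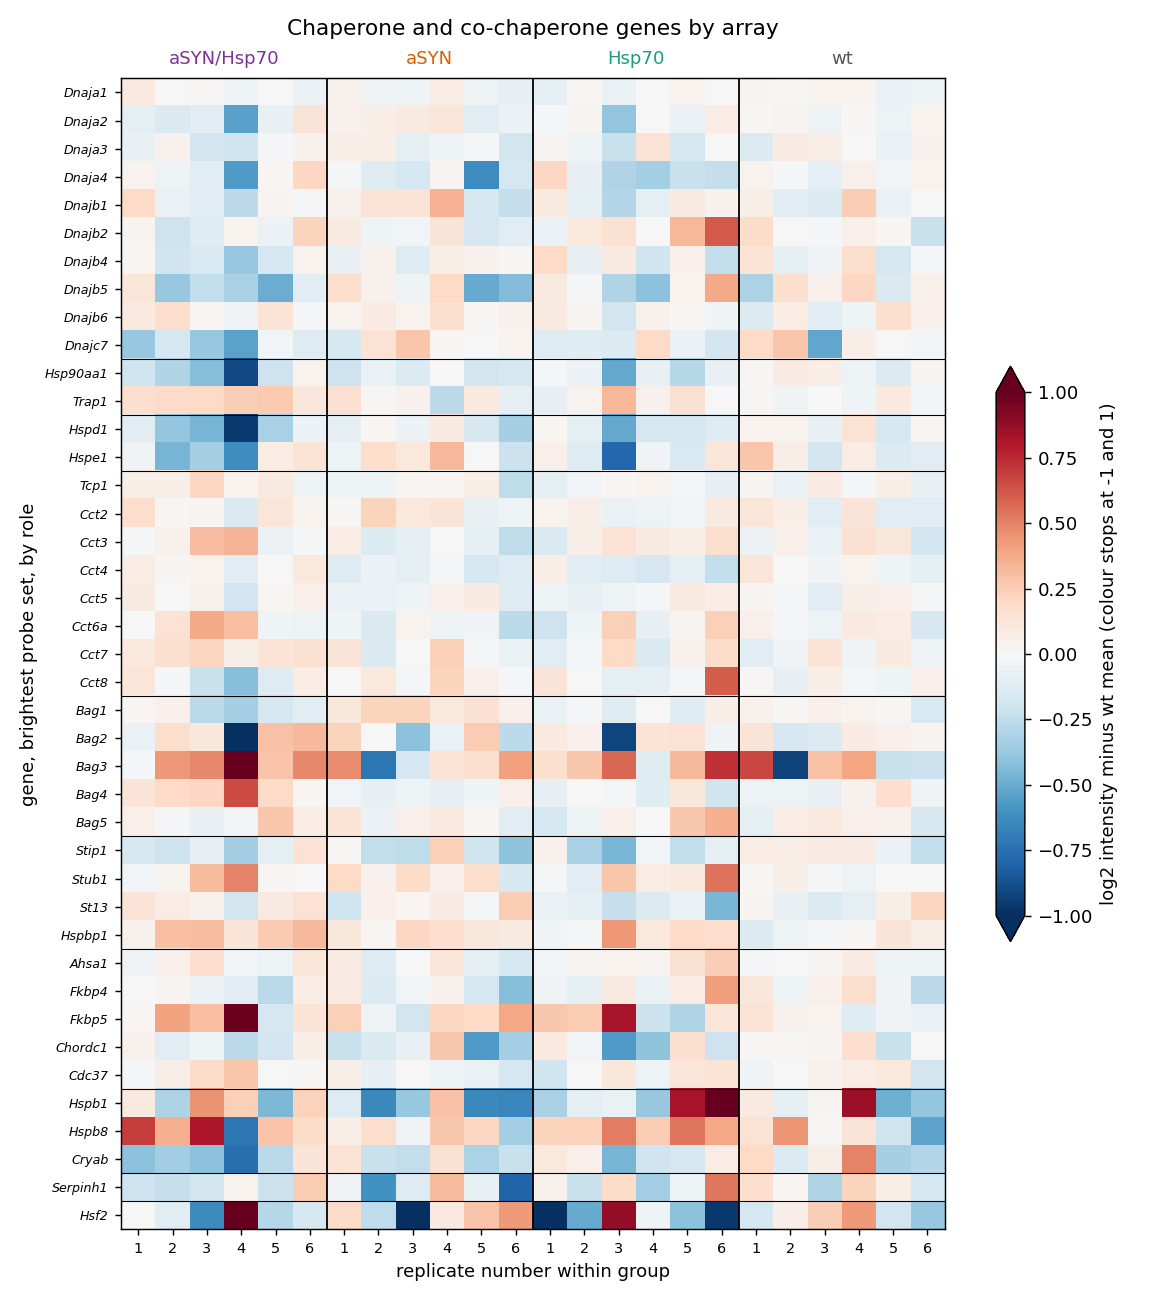
Log2 intensity of the brightest probe set of 41 chaperone and co-chaperone genes (rows, ordered by role) minus the wt mean, by array (columns, 6 replicates per group). The colour scale stops at -1 and 1. aSYN/Hsp70 replicate 4 holds the lowest value of 12 genes and the highest of 6.

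The map of levels by array shows that single arrays carried much of the spread. In aSYN/Hsp70 replicate 4, 12 of the 41 genes had their lowest value of all 24 arrays and 6 their highest. Over all genes tested, 42.8% had an extreme value on that array. Hsp70 replicate 6 held 9 highest and 3 lowest values, where 17.6% of all genes had an extreme on that array. In aSYN replicate 6 there were 8 lowest and 1 highest, where the share over all genes was 8.15%.

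The median difference over the 41 genes was near 0 in every comparison. It was 0.03 for aSYN/Hsp70 versus aSYN (27 higher, 14 lower), where all genes tested had a median of -0.01. For aSYN/Hsp70 versus wt the median was 0.003 (22 higher, 19 lower), against -0.007 for all genes. The averaged Hsp70 difference had a median of -0.0007 (20 higher, 21 lower), against -0.006 for all genes. In aSYN/Hsp70 versus Hsp70 it was 0.004 (21 higher, 20 lower), against -0.009, and the interaction had a median of 0.01, against -0.02. For aSYN versus wt it was -0.03 (16 higher, 25 lower) and for Hsp70 versus wt -0.02 (18 higher, 23 lower), against 0.008 and 0.006 for all genes.

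How large a difference the arrays could still hide is shown by the 95% intervals. In the averaged Hsp70 difference, 37 of 41 genes had an interval wholly within 0.5 of 0 on the log2 scale, against 70.4% of all genes tested. The 4 others were Bag3, Hspb1, Hspb8 and Hsf2. In aSYN/Hsp70 versus aSYN it was 31 of 41 (51.3% of all genes), in aSYN/Hsp70 versus wt 29 of 41 (52.8%) and in the interaction 25 of 41 (36.9%). The intervals are not adjusted for the number of genes. In the averaged Hsp70 difference their median half-width was 0.15 for these genes and 0.21 for all genes tested. Most of these genes were bright, and the part of signal level in these shares was not tested.

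**Figure D2:**
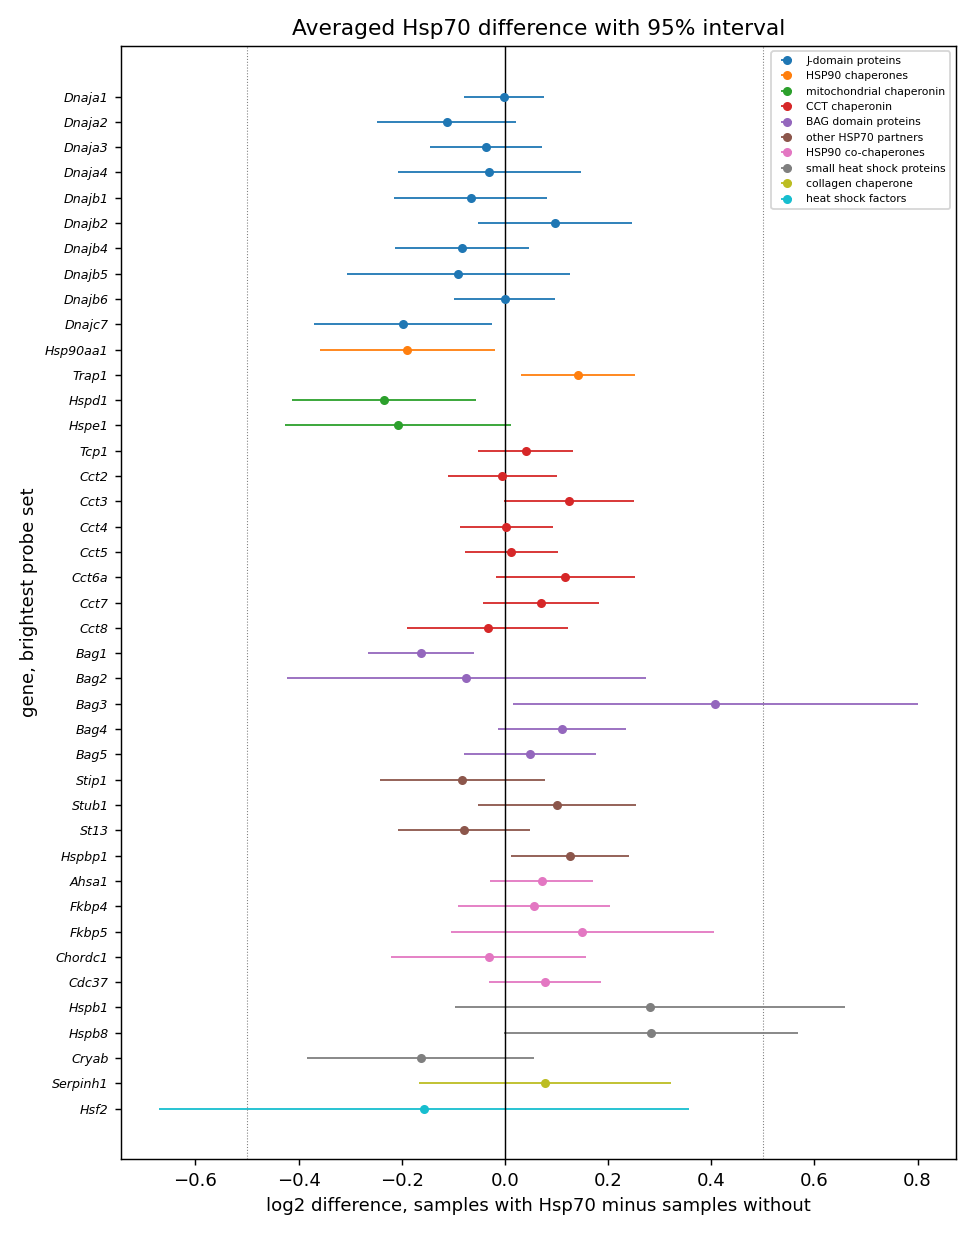
Averaged Hsp70 difference (log2, the 2 groups with Hsp70 minus the 2 groups without) of the brightest probe set of 41 genes, as a point with its 95% interval, coloured by role. Dotted lines mark -0.5 and 0.5. Intervals of 37 genes stay between the lines, and those of Bag3, Hspb1, Hspb8 and Hsf2 cross them.

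The closest of these genes to the threshold was Bag1, a nucleotide exchange factor of HSP70 that also binds the proteasome. Its log2 level ran from 13.71 to 14.10 with a median of 13.91 in aSYN/Hsp70, and from 14.10 to 14.27 with a median of 14.18 in aSYN. It ran from 13.92 to 14.12 with a median of 14.003 in Hsp70, and from 13.89 to 14.10 with a median of 14.07 in wt. All aSYN arrays lay above all aSYN/Hsp70 arrays, by a gap smaller than the last digit printed, and overlapped those of Hsp70 and wt. The mean was 0.28 lower in aSYN/Hsp70 than in aSYN, a difference of -0.28 (SE 0.07, limma adjusted p = 0.0592). Against wt, the aSYN difference was 0.15 (SE 0.07, adjusted p = 0.966) and the aSYN/Hsp70 difference was -0.13 (SE 0.07, adjusted p = 0.368). Averaged over both backgrounds, the Hsp70 difference was -0.16 (SE 0.05, adjusted p = 0.197). Leaving out the 4 arrays of low weight brought the aSYN/Hsp70 minus aSYN difference to -0.20 (adjusted p = 0.174). In bulk tissue, fewer cells of a type and less RNA per cell cannot be told apart.

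Bag4, which restrains TNF and death receptor signalling besides binding HSP70, lay the other way. Its brightest probe set ran from 13.10 to 13.74 with a median of 13.28 in aSYN/Hsp70, and from 13.00 to 13.14 with a median of 13.04 in aSYN. In Hsp70 the range was 12.88 to 13.20 with a median of 13.03, and in wt 13.01 to 13.25 with a median of 13.04. The highest value was that of aSYN/Hsp70 replicate 4, and the ranges of aSYN/Hsp70 and each other group overlapped. The difference was 0.27 against aSYN (SE 0.08, limma adjusted p = 0.107), 0.28 against Hsp70 (SE 0.08, adjusted p = 0.306) and 0.23 against wt (SE 0.08, adjusted p = 0.283). The interaction was 0.32 (SE 0.12, adjusted p = 0.490), and 0.24 in a dimmer Bag4 set (SE 0.09, adjusted p = 0.508). Without the 4 arrays of low weight the difference from aSYN was 0.17, that from Hsp70 0.16 and that from wt 0.13. The interaction without those arrays was 0.19 in the brightest set (limma adjusted p = 0.495) and 0.27 in that dimmer set (adjusted p = 0.264).

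Bag3, which couples HSP70 to small heat shock proteins and to autophagy, spread widely. It ran from 9.70 to 11.32 with a median of 10.18 in aSYN/Hsp70, and from 8.997 to 10.20 with a median of 9.87 in aSYN. In Hsp70 it ran from 9.60 to 10.45 with a median of 10.02, and in wt from 8.80 to 10.39 with a median of 9.76. All 4 ranges overlapped, and the averaged Hsp70 difference of 0.41 (SE 0.19, limma adjusted p = 0.269) was the highest of the 41 genes. It was 0.20 without the 4 arrays of low weight. Bag2, an inhibitor of the ubiquitin ligase CHIP, averaged 10.38 ± 0.68 in aSYN/Hsp70, 10.45 ± 0.26 in aSYN, 10.40 ± 0.41 in Hsp70 and 10.49 ± 0.12 in wt (SD, n = 6 each). Bag5, with several BAG domains, averaged 13.40 ± 0.13 in aSYN/Hsp70, 13.37 ± 0.09 in aSYN, 13.42 ± 0.20 in Hsp70 and 13.35 ± 0.10 in wt. Neither Bag2 nor Bag5 differed between groups by more than the spread within them.

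**Figure D3:**
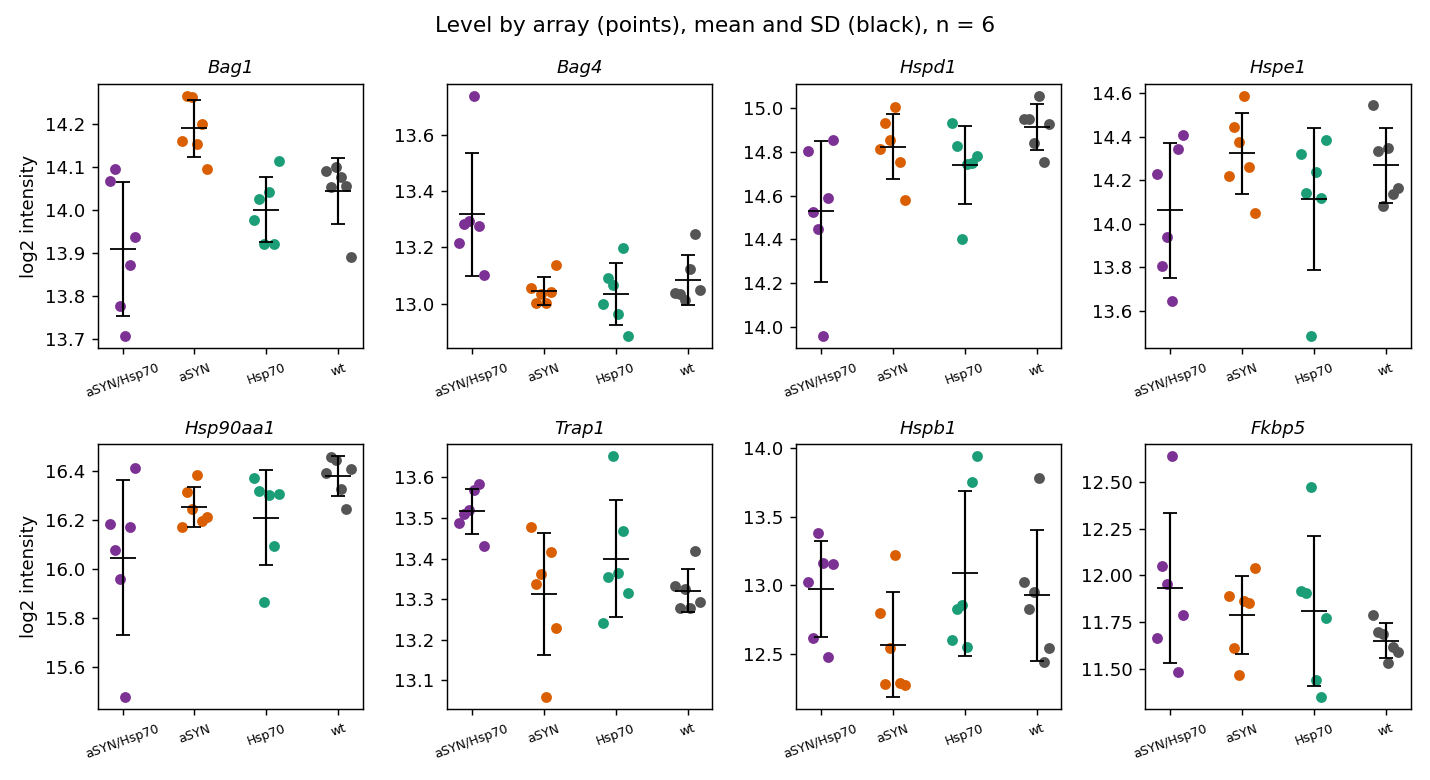
Log2 intensity of the brightest probe set of 8 genes by array (points) in aSYN/Hsp70, aSYN, Hsp70 and wt, with the group mean and SD in black (n = 6). Bag1 points of aSYN stand above those of aSYN/Hsp70, Trap1 points of aSYN/Hsp70 stand above those of wt, and the other panels overlap between groups.

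Among other partners of HSP70, Stub1 encodes CHIP, the ubiquitin ligase that tags clients of HSP70 and HSP90. Stub1 ran from 14.82 to 15.35 with a median of 14.88 in aSYN/Hsp70, from 14.70 to 15.05 with a median of 14.97 in aSYN, from 14.74 to 15.39 with a median of 14.94 in Hsp70, and from 14.80 to 14.91 with a median of 14.85 in wt. The ranges overlapped, and wt was the tightest group. In the averaged Hsp70 difference it gave 0.10 (SE 0.07, limma adjusted p = 0.456), which turned to -0.03 without the 4 arrays of low weight. Hspbp1, a nucleotide exchange factor, ran from 12.78 to 13.06 with a median of 13.02 in aSYN/Hsp70 and from 12.59 to 12.86 with a median of 12.73 in wt. Its ranges overlapped, and the difference was 0.23 (SE 0.08, adjusted p = 0.274).

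St13, the HSP70-interacting protein HIP, ran from 14.20 to 14.53 with a median of 14.47 in aSYN/Hsp70 and from 13.93 to 14.33 with a median of 14.27 in Hsp70. The groups overlapped, with aSYN/Hsp70 replicate 4 apart from its group on the low side. The difference was 0.22 (SE 0.09, limma adjusted p = 0.425). Stip1, the adaptor HOP, averaged 13.53 ± 0.16 in aSYN/Hsp70, 13.51 ± 0.23 in aSYN, 13.47 ± 0.19 in Hsp70 and 13.66 ± 0.13 in wt (SD, n = 6 each). Its lowest adjusted p was 0.565, in the averaged Hsp70 difference of -0.08.

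The 10 J-domain genes had small differences in their brightest probe sets, with 9 of 10 lower in the averaged Hsp70 difference (median -0.05, where 51.4% of all genes were lower) and 0 called. The 9 include Dnajb6 at -0.0007, which changed direction in 13 of 32 settings. Dnajb1, the stress-inducible partner of cytosolic HSP70 in disaggregation, ran from 13.80 to 14.25 with a median of 14.01 in aSYN/Hsp70 and from 13.82 to 14.41 with a median of 14.15 in aSYN. It ran from 13.77 to 14.15 with a median of 14.03 in Hsp70 and from 13.92 to 14.31 with a median of 14.03 in wt. All 4 ranges overlapped, and the averaged Hsp70 difference was -0.07 (SE 0.07, limma adjusted p = 0.620), with a 95% interval from -0.21 to 0.08. It was -0.04 without aSYN replicate 4, Hsp70 replicate 3 or wt replicate 4, and -0.01 without the 4 arrays of low weight. The interval of aSYN versus wt was -0.16 to 0.26.

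Dnajb6, a suppressor of polyglutamine and synuclein aggregation in cell studies, ran from 14.78 to 15.00 with a median of 14.88 in aSYN/Hsp70 and from 14.83 to 14.97 with a median of 14.85 in aSYN. It ran from 14.63 to 14.91 with a median of 14.84 in Hsp70 and from 14.68 to 14.98 with a median of 14.82 in wt. The groups overlapped throughout. Its averaged Hsp70 difference was -0.0007 (SE 0.05, limma adjusted p = 0.995), with an interval from -0.10 to 0.10, and its direction is not settled.

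Dnaja1, a major cytosolic J-domain protein, showed how far probe sets of a gene could part. In the brightest set the aSYN/Hsp70 minus aSYN difference was 0.02, and in a set of nearly the same brightness 0.10 (SE 0.09). Another set ran from 11.66 to 13.48 with a median of 12.43 in aSYN/Hsp70, and from 12.84 to 13.65 with a median of 13.20 in aSYN. It ran from 11.93 to 13.46 with a median of 12.96 in Hsp70, and from 12.91 to 13.50 with a median of 13.01 in wt. Its aSYN/Hsp70 minus aSYN difference was -0.72 (SE 0.24, limma adjusted p = 0.131), though the ranges overlapped. Without the 4 arrays of low weight it was -0.45 (adjusted p = 0.302). That set carries the suffix by which the array's maker marks probes that may match more than a single transcript.

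Dnajc7, with tetratricopeptide repeats that bind HSP70 and HSP90, had the lowest aSYN/Hsp70 minus aSYN difference of the 41 brightest sets. It ran from 13.03 to 13.54 with a median of 13.29 in aSYN/Hsp70 and from 13.41 to 13.84 with a median of 13.59 in aSYN. The groups overlapped, and the difference was -0.32 (limma adjusted p = 0.152). Dnaja3, the mitochondrial J-domain protein, had a mean of 13.01 over the 24 arrays in its brightest set, where the aSYN/Hsp70 minus wt difference was -0.06. In a dimmer Dnaja3 set all 6 aSYN/Hsp70 arrays (11.63 to 11.81) lay under all 6 wt arrays (11.82 to 11.95). That set differed by -0.17 in aSYN/Hsp70 versus wt (SE 0.06, adjusted p = 0.295) and by -0.17 in aSYN versus wt (SE 0.06, adjusted p = 0.744).

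The other J-domain genes had mean levels over the 24 arrays of 15.24 for Dnaja2, 12.51 for Dnaja4, 13.18 for Dnajb2, 13.74 for Dnajb4 and 12.48 for Dnajb5. Dnajb2, a neuronal protein that shuttles clients to the proteasome, had the highest averaged Hsp70 difference of the 10, at 0.10 (limma adjusted p = 0.468). It was 0.21 lower in aSYN/Hsp70 than in Hsp70, a difference of -0.21 (SE 0.10, adjusted p = 0.524), which was -0.10 without the 4 arrays of low weight. Averaged Hsp70 differences were -0.11 for Dnaja2 (-0.04 without those arrays), -0.03 for Dnaja4, -0.08 for Dnajb4 and -0.09 for Dnajb5, and none passed limma's test.

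Hsp90aa1, the stress-inducible cytosolic HSP90, ran from 15.48 to 16.41 with a median of 16.12 in aSYN/Hsp70 and from 16.17 to 16.39 with a median of 16.23 in aSYN. It ran from 15.87 to 16.37 with a median of 16.30 in Hsp70 and from 16.25 to 16.46 with a median of 16.40 in wt. The lowest values were those of aSYN/Hsp70 replicate 4 and Hsp70 replicate 3, both of low weight, and the groups overlapped. The aSYN/Hsp70 minus wt difference was -0.33 (SE 0.12, limma adjusted p = 0.278), and -0.17 without the 4 arrays of low weight. It was -0.10 and -0.07 in the other tested Hsp90aa1 sets. Another 2 Hsp90aa1 sets were too dim to be tested and lay the other way, at 8.43 ± 0.49 and 7.81 ± 0.82 in aSYN/Hsp70, against 6.94 ± 1.03 and 7.08 ± 1.16 in wt (SD, n = 6 each). The averaged Hsp70 difference was -0.19 (SE 0.08, adjusted p = 0.250), and -0.08 without those arrays.

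Trap1, the mitochondrial HSP90, was among the few genes whose brightest set separated groups. It ran from 13.43 to 13.59 with a median of 13.51 in aSYN/Hsp70 and from 13.28 to 13.42 with a median of 13.31 in wt. In aSYN it ran from 13.06 to 13.48 with a median of 13.35, and in Hsp70 from 13.24 to 13.65 with a median of 13.36. All 6 aSYN/Hsp70 arrays lay above all 6 wt arrays and overlapped the other groups. The difference was 0.20 from wt (SE 0.08, limma adjusted p = 0.297) and 0.20 from aSYN (SE 0.08, adjusted p = 0.157). Without the 4 arrays of low weight the difference from aSYN was 0.19 (limma adjusted p = 0.263). A dimmer Trap1 set gave 0.19 and 0.35 in these comparisons, in the same direction, and 0.38 and 0.54 without those arrays. That dimmer set carries the suffix for probes that may match more than a single transcript.

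Of the HSP90 co-chaperones, 4 of 5 were higher in the averaged Hsp70 difference and 0 were called. Fkbp5, an immunophilin of the glucocorticoid receptor complex, ran from 11.49 to 12.64 with a median of 11.87 in aSYN/Hsp70 and from 11.47 to 12.04 with a median of 11.86 in aSYN. It ran from 11.35 to 12.47 with a median of 11.84 in Hsp70 and from 11.53 to 11.79 with a median of 11.65 in wt. All ranges overlapped. The averaged Hsp70 difference was 0.15 (SE 0.12, limma adjusted p = 0.507), and -0.02 without the 4 arrays of low weight. Among 12 glucocorticoid targets 0 were called in any comparison.

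Fkbp4, the immunophilin that favours glucocorticoid receptor transport, had a mean of 13.09 over the 24 arrays and an averaged Hsp70 difference of 0.06. Ahsa1, the activator of the HSP90 ATPase, had a mean of 14.47 and a difference of 0.07. Cdc37, which loads kinases onto HSP90, had a mean of 14.68 and a difference of 0.08. Chordc1 had a mean of 13.22 and a difference of -0.03, with group SDs from 0.13 to 0.29. The lowest limma adjusted p among these 4 genes was 0.308, for Cdc37 in aSYN/Hsp70 versus aSYN.

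Hspd1 and Hspe1 encode HSP60 and its lid HSP10, which together form the mitochondrial chaperonin. Hspd1 ran from 13.96 to 14.85 with a median of 14.56 in aSYN/Hsp70 and from 14.58 to 15.01 with a median of 14.84 in aSYN. It ran from 14.40 to 14.94 with a median of 14.77 in Hsp70 and from 14.75 to 15.06 with a median of 14.94 in wt. The low end of aSYN/Hsp70 and Hsp70 came from arrays of low weight, and the groups overlapped. The aSYN/Hsp70 minus wt difference was -0.38 (SE 0.12, limma adjusted p = 0.250), and -0.22 without the 4 arrays of low weight. For the averaged Hsp70 difference the value was -0.23 (SE 0.09, adjusted p = 0.212), and -0.12 without those arrays.

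Hspe1 ran from 13.65 to 14.41 with a median of 14.08 in aSYN/Hsp70 and from 14.05 to 14.59 with a median of 14.32 in aSYN. It ran from 13.48 to 14.39 with a median of 14.19 in Hsp70 and from 14.08 to 14.55 with a median of 14.25 in wt. The groups overlapped, and the lowest array was Hsp70 replicate 3. The aSYN/Hsp70 minus wt difference was -0.21 (SE 0.15, limma adjusted p = 0.492), and -0.07 without the 4 arrays of low weight. A dimmer Hspe1 set gave -0.03.

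The start sites of Hspe1 and Hspd1 lie 215 bases apart on opposite strands, and the stretch between them is the first sequence printed above. Over the 24 arrays, deviations of the 2 genes from their group means had Pearson's r = 0.831 and Spearman's rho = 0.859 (two-sided permutation test, p = 1e-05 each, the smallest that 100000 permutations can give). Without the 2 arrays farthest from the median of Hspd1, aSYN/Hsp70 replicate 4 and Hsp70 replicate 3, r was 0.76 (permutation p = 2e-05) and rho 0.818 over 22 arrays. Within groups of 6 arrays, r was 0.85 in aSYN/Hsp70, 0.965 in aSYN, 0.916 in Hsp70 and 0.622 in wt. This was the only relation computed between genes, so how far other pairs move together on these arrays was not measured. The Hspe1 set used carries the suffix for probes that may match more than a single transcript. The dimmer Hspe1 set was not used in the relation. Both values of a point come from the same array and share its normalisation and RNA quality, whose part in the relation was not tested.

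**Figure D4:**
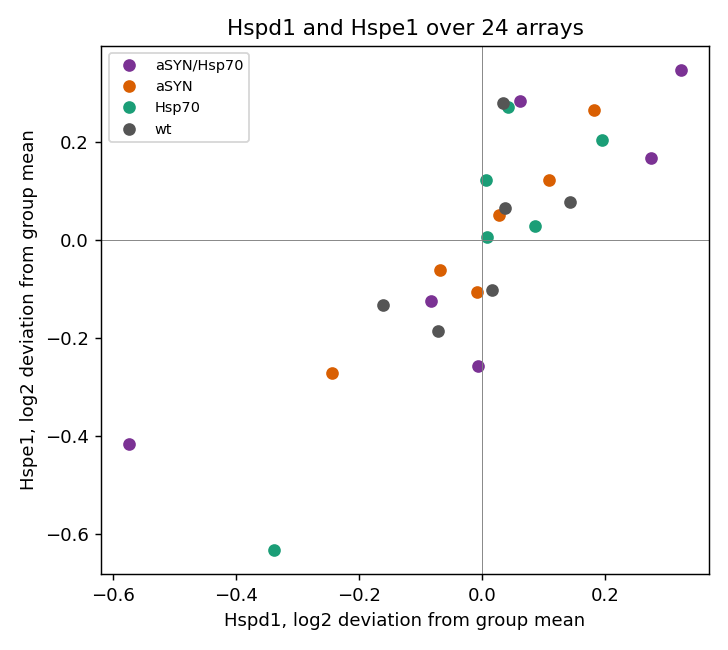
Log2 deviation of Hspe1 from its group mean (y axis) against that of Hspd1 (x axis) over 24 arrays, coloured by group. Points run from lower left to upper right (r = 0.831), and the array of aSYN/Hsp70 farthest left is replicate 4.

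The cytosolic chaperonin CCT, built of 8 kinds of subunit, folds actin and tubulin. In aSYN/Hsp70 versus aSYN, 6 of the 8 subunit genes were higher (median 0.11) and 0 were called. For aSYN/Hsp70 versus wt 7 of 8 were higher (median 0.05), and in the averaged Hsp70 difference 6 of 8 (median 0.03). Over the 24 arrays the brightest sets had mean levels of 15.24 for Tcp1, 15.28 for Cct2, 15.20 for Cct3, 14.57 for Cct4, 14.72 for Cct5, 15.16 for Cct6a, 14.85 for Cct7 and 13.95 for Cct8. Cct6a had the largest difference in aSYN/Hsp70 versus aSYN, 0.21 (limma adjusted p = 0.224), which was 0.10 without the 4 arrays of low weight, and Cct8 the lowest, -0.16 (adjusted p = 0.410), which was -0.05 without them. The brightest Cct4 set ran from 14.50 to 14.72 with a median of 14.65 in aSYN/Hsp70, from 14.45 to 14.60 with a median of 14.51 in aSYN, from 14.37 to 14.68 with a median of 14.50 in Hsp70, and from 14.53 to 14.73 with a median of 14.60 in wt. Its ranges overlapped, its aSYN/Hsp70 minus Hsp70 difference was 0.13 (SE 0.06, adjusted p = 0.499), and its interaction was 0.23 (SE 0.09, adjusted p = 0.503).

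Dimmer probe sets of several subunits gave values that their brightest sets did not share. The second Cct6a set lay the other way from the brightest, at 14.41 ± 0.43 in aSYN/Hsp70, 14.77 ± 0.16 in aSYN, 14.54 ± 0.37 in Hsp70 and 14.78 ± 0.13 in wt (SD, n = 6 each). That set differed by -0.36 in aSYN/Hsp70 versus aSYN (SE 0.17, limma adjusted p = 0.246) and by -0.37 versus wt, and by -0.12 in each without the 4 arrays of low weight. The second Cct7 set gave -0.09 in both comparisons, where the brightest gave 0.11 and 0.14. A Cct3 set ran from 9.98 to 11.24 with a median of 10.43 in aSYN/Hsp70, from 9.21 to 10.41 with a median of 9.58 in aSYN, from 7.70 to 11.11 with a median of 9.78 in Hsp70, and from 5.17 to 9.93 with a median of 9.36 in wt. The wt range was the widest, and all aSYN/Hsp70 arrays lay above all wt arrays. This set differed from wt by 2.30 in aSYN/Hsp70 (SE 0.70, limma adjusted p = 0.245), by 1.48 in aSYN (adjusted p = 0.955) and by 1.57 in Hsp70 (adjusted p = 0.881). Without wt replicate 5 the aSYN difference was 0.88 and the Hsp70 difference 0.97, and without wt replicate 1 the aSYN difference was 0.97. The brightest Cct3 set differed from wt by 0.10 in aSYN/Hsp70. The set that differed by 2.30 carries the suffix for probes that may match more than a single transcript.

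Of the dimmer Cct4 sets, 2 lay higher in every aSYN/Hsp70 array than in any wt array, and both carry that suffix. They ran from 11.39 to 11.68 in aSYN/Hsp70 against 10.73 to 11.30 in wt, and from 10.30 to 11.08 in aSYN/Hsp70 against 9.54 to 10.28 in wt. Their differences were 0.46 (SE 0.17) and 0.44 (SE 0.17), each with a limma adjusted p of 0.297. The first of them differed by 0.38 in Hsp70 versus wt (SE 0.17, adjusted p = 0.881), and by 0.21 without the 4 arrays of low weight. Another Cct4 set went the other way, running from 9.34 to 10.25 with a median of 9.74 in aSYN/Hsp70 and from 9.36 to 10.08 with a median of 9.88 in Hsp70. It ran from 9.86 to 10.36 with a median of 10.12 in aSYN and from 10.01 to 10.36 with a median of 10.17 in wt. Its averaged Hsp70 difference was -0.34 (SE 0.11, adjusted p = 0.197) and its Hsp70 versus wt difference -0.33 (SE 0.15, adjusted p = 0.881).

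**Figure D5:**
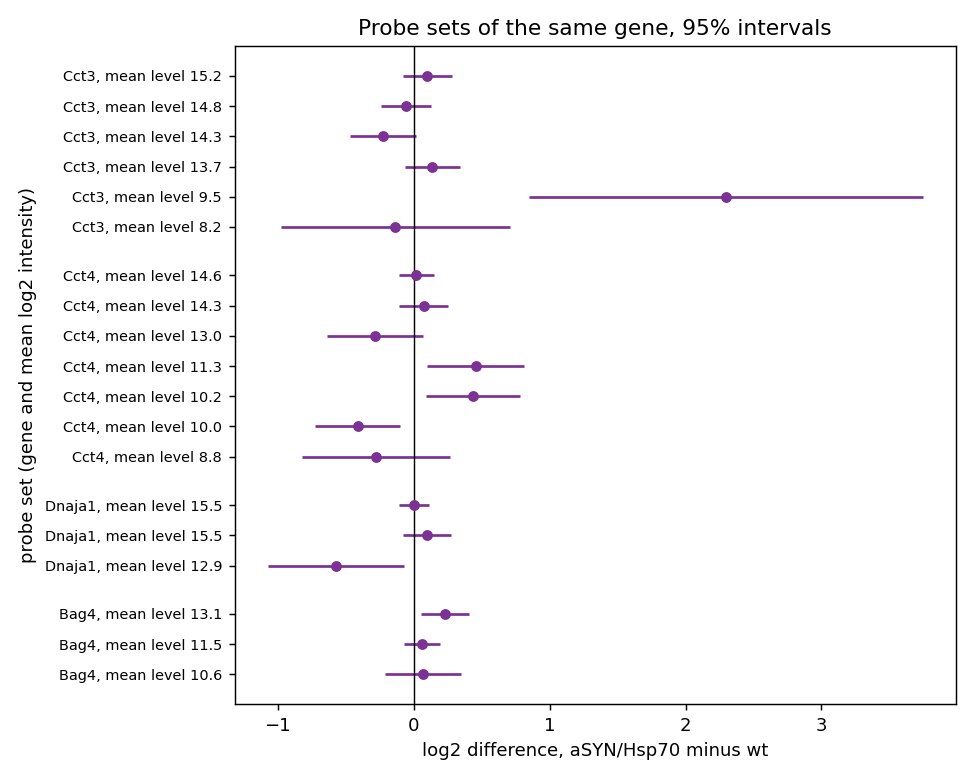
Log2 difference of aSYN/Hsp70 minus wt with its 95% interval for each tested probe set of Cct3, Cct4, Dnaja1 and Bag4, labelled by mean log2 intensity. The brightest sets of Cct3, Cct4 and Dnaja1 sit near 0, and dimmer sets of Cct3 and Cct4 reach 2.30 and 0.46.

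The plot of probe sets of the same gene shows this disagreement. Of the 28 genes with several tested sets, 16 had sets of both signs in aSYN/Hsp70 versus wt, 15 in aSYN/Hsp70 versus aSYN and 15 in the averaged Hsp70 difference. The same held for 16 in aSYN/Hsp70 versus Hsp70, 12 in aSYN versus wt, 18 in Hsp70 versus wt and 18 in the interaction. Among the 100 probe sets, 20 carried a suffix that marks probes shared between transcripts.

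Hspb1, the small heat shock protein HSP27, spread over more than 1 log2 unit in Hsp70 and in wt, and over slightly less in the other groups. It ran from 12.48 to 13.38 with a median of 13.09 in aSYN/Hsp70 and from 12.27 to 13.22 with a median of 12.42 in aSYN. It ran from 12.55 to 13.94 with a median of 12.85 in Hsp70 and from 12.44 to 13.78 with a median of 12.89 in wt. All groups overlapped. The aSYN/Hsp70 minus aSYN difference was 0.40 (SE 0.26, limma adjusted p = 0.383), the aSYN minus wt difference was -0.36 (SE 0.26) and the averaged Hsp70 difference was 0.28 (SE 0.18, adjusted p = 0.404). Without the 4 arrays of low weight the first was 0.25 and the averaged difference 0.13, and without wt replicate 4 the aSYN minus wt difference was -0.19. A dimmer Hspb1 set averaged 11.71 ± 0.40 in aSYN/Hsp70 and 11.55 ± 0.44 in aSYN (SD, n = 6 each). It averaged 11.955 ± 0.60 in Hsp70 and 12.01 ± 0.56 in wt. Its Hsp70 mean lay below its wt mean, where that of the brightest set lay above. Hspb8, which works with BAG3 in autophagy of clients, averaged 10.86 ± 0.54 in aSYN/Hsp70, 10.65 ± 0.22 in aSYN, 10.95 ± 0.15 in Hsp70 and 10.59 ± 0.33 in wt (SD, n = 6 each). Its averaged Hsp70 difference was 0.28 (SE 0.14, adjusted p = 0.284). An Hspb8 set of nearly the same brightness had its Hsp70 mean below its wt mean, at 10.56 ± 0.72 against 10.79 ± 0.40. That set carries the suffix for probes that may match more than a single transcript. The dimmest Hspb8 set lay the same way as the brightest, at 10.60 ± 0.43 in Hsp70 and 10.41 ± 0.44 in wt.

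Cryab, alpha-B crystallin, a small heat shock protein abundant in oligodendrocytes and astrocytes, ran from 13.82 to 14.70 with a median of 14.19 in aSYN/Hsp70 and from 14.25 to 14.72 with a median of 14.35 in aSYN. It ran from 14.11 to 14.68 with a median of 14.51 in Hsp70 and from 14.24 to 15.07 with a median of 14.53 in wt. The groups overlapped, and aSYN/Hsp70 replicate 4 was the lowest array. The aSYN/Hsp70 minus wt difference was -0.35 (SE 0.15, limma adjusted p = 0.322) and the averaged Hsp70 difference was -0.16 (SE 0.11, adjusted p = 0.406). Without the 4 arrays of low weight these were -0.23 and -0.08. A dimmer Cryab set gave -0.38 in aSYN/Hsp70 versus wt. Of 9 oligodendrocyte markers tested, 8 were lower in aSYN/Hsp70 than in wt, with a median of -0.22, 5 of them at an unadjusted p under 0.05 (8.44% of all probe sets were lower at that p) and 0 called. Without the 4 arrays of low weight the median was -0.14, and 3 of 9 were lower at that p, against 4.9% of all probe sets. Per array, their mean deviation from wt ran from -0.72 to 0.06 in aSYN/Hsp70 and from -0.11 to 0.09 in wt. Astrocyte markers had a median aSYN/Hsp70 minus wt difference of 0.03, with 6 of 10 positive, 4 negative and 0 called. The part of either marker list in the Cryab values was not tested.

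Serpinh1, the collagen chaperone HSP47 of the endoplasmic reticulum, averaged 10.94 ± 0.20 in aSYN/Hsp70, 10.81 ± 0.41 in aSYN, 11.05 ± 0.31 in Hsp70 and 11.03 ± 0.20 in wt (SD, n = 6 each), with no difference called. Hsf2, a heat shock factor active in development, averaged 8.70 ± 0.71 in aSYN/Hsp70, 8.59 ± 0.58 in aSYN, 8.23 ± 0.81 in Hsp70 and 8.66 ± 0.30 in wt (SD, n = 6 each). Its interval in the averaged Hsp70 difference, -0.67 to 0.36, was the widest of the 41 genes.

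Wider lists of chaperone genes gave few calls. Of 24 further J-domain genes, 1 brightest set fell in aSYN/Hsp70 relative to aSYN, and over all their 51 tested sets 2 were called, against 0.718% of all probe sets. It was Dnajc2, a J-domain protein of the ribosome, with a difference of -0.46 (SE 0.10, limma adjusted p = 0.0276). That call was lost in 6 of the 12 fits that left out a single array of these groups, with an adjusted p of up to 0.0842 without aSYN replicate 2. Another set in that list that passed the test belonged to Dnajc6, auxilin, an HSP70 partner in clathrin uncoating, and rose by 0.48 in aSYN/Hsp70 (SE 0.08, adjusted p = 0.00953). It passed in all 12 of those fits, with an adjusted p of at most 0.0322, but the brightest Dnajc6 set was not called. The called sets of Dnajc2 and Dnajc6 both carry the suffix for probes that may match more than a single transcript. In that comparison 0 of 13 HSP70 and HSP110 genes, 0 of 15 further HSP90 partners, 0 of 15 prefoldin and CCT helper genes and 0 of 4 further small heat shock genes were called. In the averaged Hsp70 difference 0 genes of these lists were called either, and the list medians ran from -0.06 to 0.08.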

How the data were processed

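Total RNA of whole brain was measured on 24 Affymetrix arrays, 1 per sample, grouped by sample title. The deposited values were linear intensities, a value for each probe set on each array. The labels do not name the program that summarised probes. Each deposited array had the same mean intensity of 2500 after trimming 2% at each end. Values were transformed as log2(intensity + 16), which understates differences of dim probe sets, and quantile normalised. The 64 control probe sets and the dimmest 40% (18015) were left out, and 27022 were tested.

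All 7 comparisons were contrasts in a single means model over the 24 arrays (R 4.3.3, limma 3.58.1, lmFit and eBayes), with Benjamini-Hochberg adjustment over the 27022 probe sets and a threshold of 0.05. Every gene is named; full values are given for the brightest set of 8 fixed genes and for the 3 smallest p-values in each comparison, and values of other genes were chosen after they were seen. The members and lists were chosen with earlier results of these data known. The fit was tested on simulated data.

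The labels do not say that replicate numbers pair the arrays, and no pairing was used. Over 36 same-numbered pairs of arrays the correlation of deviations ran from -0.148 to 0.193, with 3 above 0.1. Over 180 pairs of different number and group it ran from -0.234 to 0.226, with 11 above 0.1. These values cannot show that no pairing or shared batch exists. Levels of different probe sets were not compared. The number of arrays limits the precision. Sequences came from RefSeq (GRCm38.p6). Figures used matplotlib 3.10.9.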

Additional observations from a re-analysis of the deposited data

Results flagged for a closer look

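Among the 41 brightest probe sets in 4 groups of 6 arrays, 164 sets of 6 values were examined for a highest or lowest array far from the rest, by Dixon's 95% critical value for the gap to the nearest array over the group's range. In 16 an array stood apart, of which 10 were lowest and 6 highest values. Chance gives about 1 in 20, or 8.2 of 164, and 12 of the 16 lay on the 4 arrays of low weight. Values are log2 intensities, each followed by the nearest array of its group. In aSYN/Hsp70 replicate 4, Cct5 had 14.53 (nearest 14.73), Bag2 had 9.022 (nearest 10.42), St13 had 14.2 (nearest 14.43), each the lowest of its group. In the same array, Bag3 had 11.32 (nearest 10.2), Bag4 had 13.74 (nearest 13.29), Hsf2 had 10.08 (nearest 8.666), each the highest of its group. In Hsp70 replicate 3, Dnaja2 had 14.89 (nearest 15.22), Hspd1 had 14.4 (nearest 14.75), Hspe1 had 13.48 (nearest 14.12), Bag2 had 9.567 (nearest 10.46), each the lowest of its group. In Hsp70 replicate 6, Cct8 had 14.55 (nearest 14.07), Fkbp4 had 13.53 (nearest 13.2), each the highest of its group. On arrays of higher weight, Dnaja4 had 11.99 in aSYN replicate 5 (lowest, nearest 12.44), Dnajc7 had 13.76 in Hsp70 replicate 4 (highest, nearest 13.51), Tcp1 had 14.99 in aSYN replicate 6 (lowest, nearest 15.2), Bag1 had 13.89 in wt replicate 6 (lowest, nearest 14.06).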

How the results depend on the processing

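The count of chaperone probe sets called stayed at 0 under every alternative run in 6 of the 7 comparisons. In aSYN/Hsp70 versus aSYN it was 1 with array weights and 1 with a trended and robust variance, Bag1 in each, and leaving out single arrays gave 0 to 3. The 3 came without aSYN/Hsp70 replicate 6 and were Bag1, Bag4 and a dimmer Dnaja1 set. The count was 1, Bag1, without aSYN/Hsp70 replicate 1 or replicate 2. Bag1 passed in 5 of 21 settings, with limma adjusted p-values from 0.0317 to 0.218 and differences from -0.32 to -0.20, and without aSYN/Hsp70 replicate 4 its p was 0.119. With the replicate block, which reflects no pairing stated in the labels, 0 of these probe sets were called in each comparison. Over all probe sets in aSYN/Hsp70 versus aSYN 70 were called with it, against 194. That count of 194 was 43 with no filter on dim probe sets, 324 with array weights, 90 with the sex covariate, 100 without the 4 arrays of low weight, 369 with a trended and robust variance and 7 in a fit on only the 2 groups. Leaving out an array gave 49 without aSYN replicate 2, 49 without replicate 3, 127 without replicate 4 and 56 without replicate 6, and 120, 66, 101 and 814 without aSYN/Hsp70 replicate 2, 3, 4 and 6. Over all probe sets in aSYN versus wt, 217 were called with array weights and 35 without the 4 arrays, against 1. In the interaction 81 were called with array weights, against 0. In the comparisons other than aSYN/Hsp70 versus aSYN, no further setting gave more than 30. The averaged Hsp70 difference of Dnajb6 turned to 0.00312 without quantile normalisation, 0.0248 with array weights and 0.0439 without the 4 arrays of low weight, and leaving out single arrays gave -0.0143 to 0.0173. That of Stub1 turned to -0.00256 with array weights and to -0.0305 without the 4 arrays, and that of Fkbp5 to -0.0192 without them; the cause was not tested. No median over the genes moved by more than the spread between arrays, but in 5 of the 7 comparisons its sign changed under some alternative, so the sign of those medians is not settled. Of 31 single-gene results followed, 28 kept their direction in all settings run. Fits on only the groups compared could not be made for the averaged difference and the interaction, which use all groups. With 6 arrays a group, probe sets of a gene that disagree and 4 arrays that stand apart, small differences remain undetectable here.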
